A study of Mus musculus with 12 samples.

Results

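The Hox genes encode homeodomain transcription factors and lie in 4 clusters on the mouse chromosomes, Hoxa on chromosome 6, Hoxb on 11, Hoxc on 15 and Hoxd on 2. They were taken as all probes whose gene name on the array is Hox, a cluster letter from a to d and a number, leaving out control spots. This gave 39 genes with 52 probes, of 56605 probes on the array, and 32 of the 39 genes had a probe bright enough to be tested. Expression was measured in bone marrow cells of male mice sorted as LSK SLAM, the phenotype that defines mouse haematopoietic stem cells. Each of 4 groups had 3 mice, with 1 single-colour Agilent array per mouse. The POL5551 group received this antagonist of the chemokine receptor CXCR4 as an infusion of 100 mg/kg per day for 2 weeks, with cells taken 14 days after its start. One G-CSF group received 4 injections and was studied at 2 days, and another received 9 injections and was studied at 5 days, in both at 100 ug/kg of the cytokine every 12 h. Sham-operated mice were the reference for all 3. Neither strain nor age is stated in the labels. The labels give a separate mouse for each array, so the spread described is that between mice, and 3 per group limit the precision.

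Within each cluster the genes are numbered from the 3′ end (1) to the 5′ end (13), and in the embryo they are switched on in that order along the body axis. In blood, members of the Hoxa and Hoxb clusters are active in stem cells and early progenitors and decline as cells mature. Hoxa9 with its partner Meis1 drives self-renewal in leukaemia, Hoxb4 expands stem cells when overexpressed, and Hoxb5 has been used to mark long-term stem cells of the mouse. Hox proteins bind DNA with TALE cofactors of the Pbx and Meis families. Trithorax complexes built around the MLL protein keep Hox genes active, and Polycomb complexes keep them silent.

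Sequences are shown for 3 probes that decide how a gene's values can be read. Positions follow the design of the array, which uses mm9, and each probe is written 5′ to 3′ as spotted. The Hoxa9 probe is 60 bases long but covers chr6:52174477-52175581 on the minus strand, so it crosses an exon junction. The probe used for Hoxb2, at chr11:96211860-96211919, is on the minus strand, whereas all other Hoxb probes are on the plus strand. It was the only one of the 52 Hox probes on the strand opposite to its cluster, so its values belong to an antisense transcript. The last probe is that of Hoxd3os1, a non-coding transcript on the minus strand of the Hoxd cluster at chr2:74548166-74548225.
Hoxa9, exon junction: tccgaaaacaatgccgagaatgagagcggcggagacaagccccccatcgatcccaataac
Hoxb2 label, opposite strand: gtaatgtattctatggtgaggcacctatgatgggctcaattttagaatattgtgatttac
Hoxd3os1: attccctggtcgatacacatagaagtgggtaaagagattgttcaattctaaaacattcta

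Promoter windows of 300 bases, from 250 before to 50 after the start, were taken from RefSeq on GRCm38.p6, and 22 of the Hox genes had one. Hoxd9 and Hoxa9 are shown because they have the same number in their clusters and their POL5551 differences had opposite signs. Hoxd9 lies at chr2:74697513-74697812 on the plus strand and Hoxa9 at chr6:52227321-52227620 on the minus strand, and capitals mark each CG dinucleotide.
Hoxd9: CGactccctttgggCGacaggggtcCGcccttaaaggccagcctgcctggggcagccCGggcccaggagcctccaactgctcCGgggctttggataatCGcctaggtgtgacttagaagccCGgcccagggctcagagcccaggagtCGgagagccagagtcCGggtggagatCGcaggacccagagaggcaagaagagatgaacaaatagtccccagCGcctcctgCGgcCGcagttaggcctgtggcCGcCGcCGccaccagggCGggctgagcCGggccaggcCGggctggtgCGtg
Hoxa9: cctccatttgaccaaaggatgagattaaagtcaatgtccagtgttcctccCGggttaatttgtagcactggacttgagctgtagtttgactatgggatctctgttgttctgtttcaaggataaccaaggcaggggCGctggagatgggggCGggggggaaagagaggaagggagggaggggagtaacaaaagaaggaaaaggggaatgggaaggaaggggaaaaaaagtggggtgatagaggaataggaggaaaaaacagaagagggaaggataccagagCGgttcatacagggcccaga
The Hoxd9 window holds 20 CG dinucleotides and the Hoxa9 window 4. The median was 14.5 over the 24 Hox windows and 7 over all 32851 windows. The letters TGATNNAT, a core bound by Pbx with Hox, were found on either strand in 4 of 24 Hox windows and in 8.8% of all windows. The letters TGACAG, bound by Meis, were found in 2 of 24 Hox windows and in 19.2% of all windows. Neither pattern contains the other, and neither was found in the Hoxd9 and Hoxa9 windows.

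Detection followed cluster and position (see the grid of arrays above background). A gene was counted as detected on an array where at least 1 of its probes was well above background by the scanner software. Of the 39 genes, 20 were detected on all 12 arrays, 13 on some and 6 on none. The Hoxa cluster had 8 of 11 genes on all arrays, the Hoxb cluster 6 of 10 and the Hoxc cluster 5 of 9, whereas the Hoxd cluster had only Hoxd8, 1 of 9. Hoxb2 was counted on all arrays through its antisense probe, its coding probe being above background on 11, and Hoxc13 through a non-coding transcript model, its coding probe being above background on 0. Hoxa9, Hoxb9 and Hoxd8 each had a further probe that was above background on 0 arrays. Among genes numbered 5 to 10, 12 of 18 were detected on all arrays and none was missing throughout. Among those numbered 11 to 13, 2 of 9 were on all arrays and 4 on none. The genes never detected were Hoxa11, Hoxb1, Hoxb13, Hoxd1, Hoxd11 and Hoxd12, and Hoxc8 was detected on 1 array.

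**Figure D1:**
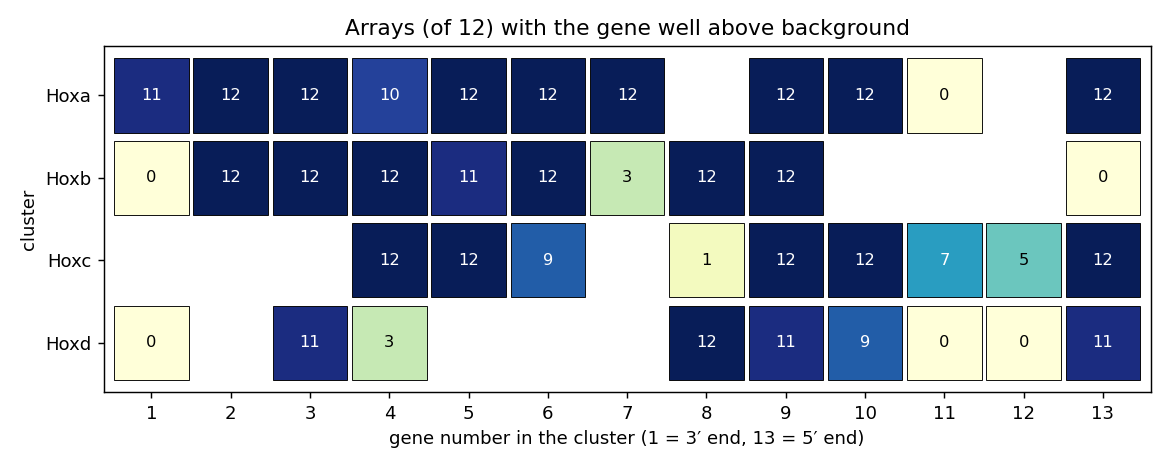
Number of the 12 arrays on which each Hox gene was well above background, by cluster (rows) and gene number (columns). Blank cells are numbers with no gene among the members; the Hoxd row has 1 gene at 12 arrays, and the 6 genes at 0 are at numbers 1 and 11 to 13.

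Detection here is not the same as expression. Between 63.5% and 71.2% of Hox probes were above background in POL5551 mice, 69.2% to 71.2% after 2 days of G-CSF, 65.4% to 78.8% after 5 days and 67.3% to 71.2% in sham mice. Of all probes 75.3% to 85.6% were above background per array, which was more than the Hox share on every array. Olfactory, vomeronasal, taste and keratin-associated genes, which blood cells are not known to use, were above background at 48.7% to 58.1% of probes in POL5551 mice, 71.7% to 77.0% after 2 days of G-CSF, 60.8% to 69.1% after 5 days and 61.8% to 78.8% in sham mice. Compared on the same array, the Hox share was above the share of these off-tissue genes in all POL5551 mice, all 5-day mice and sham mice 2 and 3. It was below in all 2-day mice and in sham mouse 1. The number of Hox genes detected per array differed little, from 26 to 29 in POL5551 mice, 28 or 29 after 2 days of G-CSF, 27 to 32 after 5 days and 28 or 29 in sham mice.

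Some properties of the arrays touch every result. One sham array, sham 1, correlated with the other sham arrays at a Spearman's rho of 0.787 and 0.784 over tested genes, against 0.934 to 0.962 for other arrays of 1 group. The median level of off-tissue genes was -5.17, -4.50 and -4.11 in POL5551 mice, -2.40, -2.73 and -2.60 at 2 days of G-CSF, -3.97, -3.87 and -3.25 at 5 days, and -1.61, -3.30 and -3.45 in sham mice. Levels are log2 signals relative to the array's 75th percentile, so a level of 0 equals that percentile. The 3 arrays of the 2-day group shared a slide with no other group, so slide and 2-day treatment cannot be told apart. Of 14 stem and progenitor markers on the array, all 14 were above background on every array except 1 of the sham group, which had 13. Kit, a receptor used in the sort, had 2.82, 3.16 and 3.04 in POL5551 mice, 2.61, 2.79 and 2.93 at 2 days of G-CSF, 2.66, 2.72 and 2.65 at 5 days, and 2.88, 3.22 and 3.02 in sham mice.

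No Hox gene passed the adjusted threshold of 0.05 in any of the 5 comparisons or in the F test over the 4 groups, by limma with Benjamini-Hochberg adjustment over 33191 genes. With POL5551 against sham, 0 of 32 Hox genes were called, where 2.28% of all tested genes were. At an unadjusted p under 0.05 there were 10 of 32, all lower in POL5551 mice and one of them the antisense probe named Hoxb2, whose coding probe was not lower, beside 35.0% of all genes at that level, made up of 26.7% lower and 8.33% higher. The 32 Hox genes had a median log2 difference of -0.48, and all tested genes one of -0.52. The median of the Hox genes was thus close to that of all genes. Differences between clusters were described and not tested. The median difference was 0.23 for 10 Hoxa genes, -0.06 for 8 Hoxb genes, -1.10 for 8 Hoxc genes and -2.38 for 6 Hoxd genes. With quantile normalization the Hoxc and Hoxd medians were -0.57 and -1.72 (all genes -0.20), and with normexp background correction before it -0.29 and -0.74 (all genes -0.14). All 6 Hoxd genes were lower at an unadjusted p under 0.05, against 3 of 6 with quantile normalization and 4 of 6 with normexp as well. At the main setting so were 2 of 8 Hoxb, 2 of 8 Hoxc and 0 of 10 Hoxa genes. In the 6 Hoxd genes, Hoxb9, Hoxc9 and Hoxc10, 9 of 32 in all, every POL5551 mouse lay below every sham mouse, beside 25.9% of all genes. None lay wholly above sham, beside 10.6% of all genes.

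**Figure D2:**
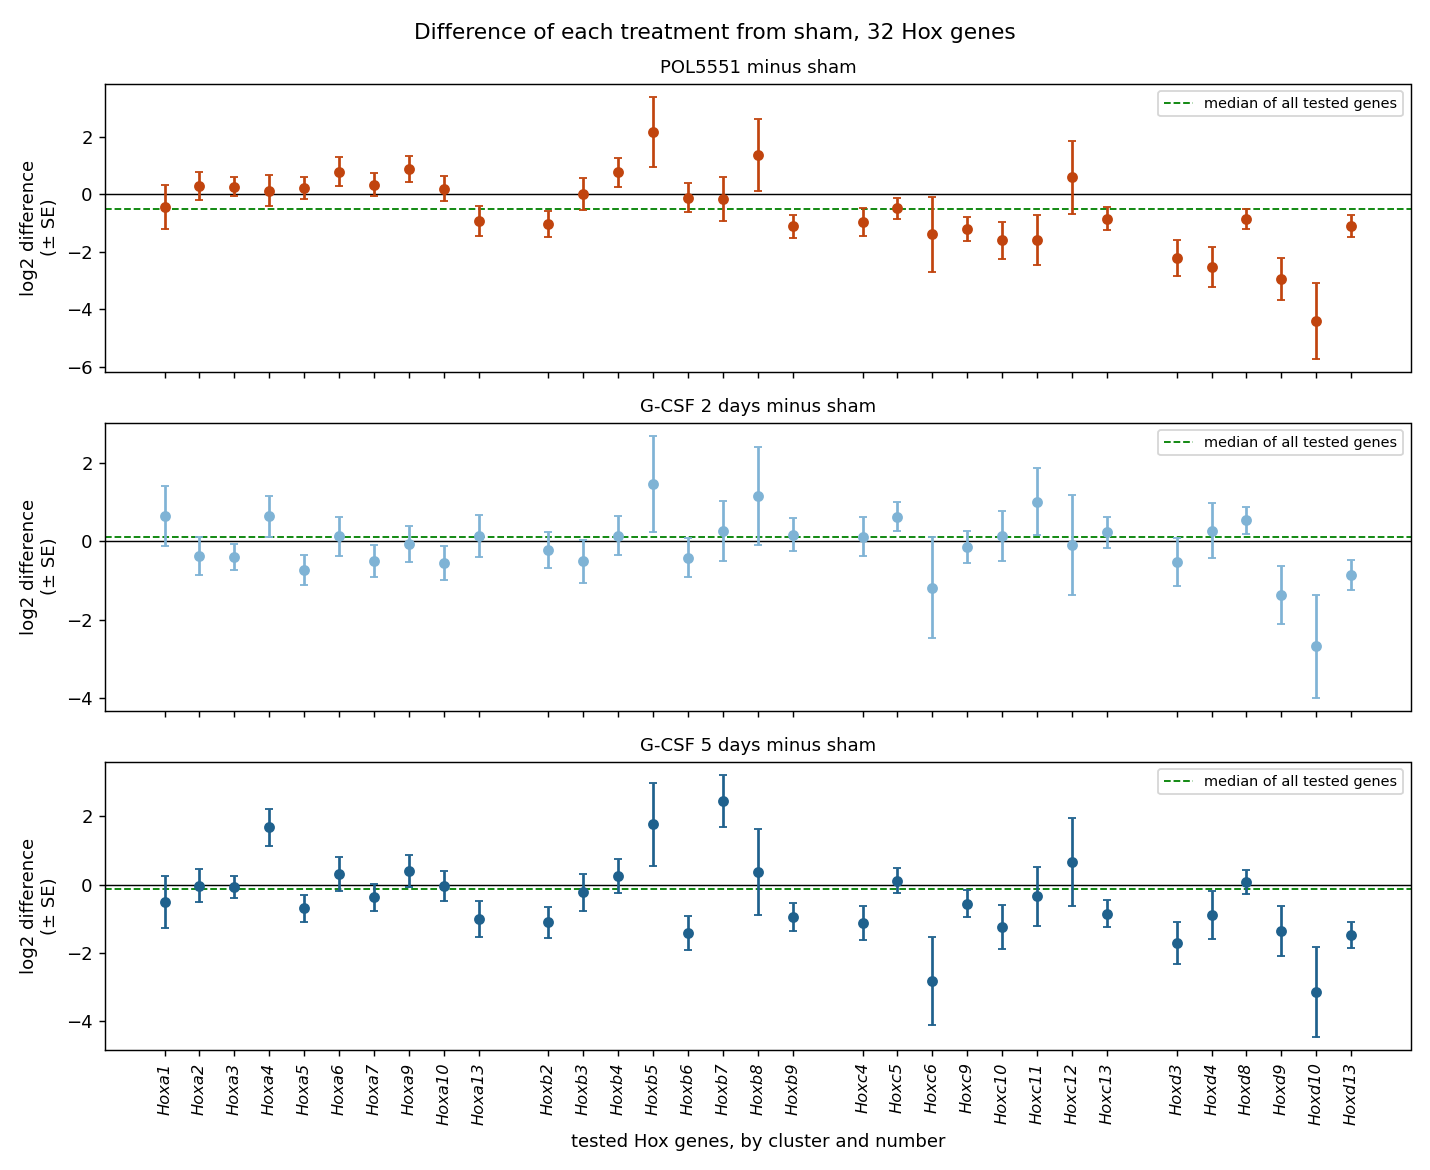
Log2 difference from sham (y axis, points, with bars of 1 standard error from limma) of the 32 tested Hox genes in cluster order (x axis), for POL5551, G-CSF for 2 days and G-CSF for 5 days. The dashed line is the median of all tested genes, at -0.52, 0.10 and -0.13; the 6 Hoxd genes all lie below 0 in the POL5551 panel.

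The Hoxd genes, known best from the patterning of limbs and genitalia, were all below sham under POL5551. Hoxd9 had levels of -5.31, -2.81 and -2.63 in POL5551 mice, -1.86, -1.90 and -2.22 at 2 days of G-CSF, -3.29, -1.84 and -0.81 at 5 days, and -0.38, -1.15 and -0.34 in sham mice. All POL5551 and all 2-day mice lay below the sham mice, and the 5-day mice overlapped them. The POL5551 difference from sham was -2.96 (SE 0.732, adjusted p = 0.058), which was the smallest adjusted p of any Hox gene in that comparison. Hoxd9 was above background on 2 of 3 POL5551 arrays and on all others. Hoxd10, which shapes the hindlimb and its motor neurons, had -7.47, -5.26 and -3.72 in POL5551 mice, -2.51, -6.96 and -1.78 at 2 days of G-CSF, -5.40, -4.82 and -2.42 at 5 days, and -0.75, -1.002 and -1.46 in sham mice. Every treated mouse of the 3 groups lay below every sham mouse, with a wide spread inside each treated group. The POL5551 difference was -4.41 (SE 1.31, adjusted p = 0.0735), the 2-day difference -2.68 (SE 1.31, adjusted p = 0.575) and the 5-day difference -3.14 (SE 1.31, adjusted p = 0.419). Hoxd10 was above background on 1 of 3 POL5551 arrays, 2 of 3 arrays at 2 days and all arrays at 5 days and in sham mice.

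Hoxd3, a 3′ member that patterns the neck vertebrae, had -4.63, -4.33 and -4.24 in POL5551 mice, -2.39, -2.49 and -3.24 at 2 days of G-CSF, -5.63, -2.91 and -3.14 at 5 days, and -2.03, -1.79 and -2.71 in sham mice. The POL5551 mice were close together and below all sham mice, and so were the more scattered 5-day mice. Its difference was -2.22 under POL5551 (SE 0.621, adjusted p = 0.0663) and -1.71 after 5 days of G-CSF (SE 0.621, adjusted p = 0.377). Hoxd4 had a fitted difference of -2.53 under POL5551 (SE 0.699, adjusted p = 0.0656). It was above background on no POL5551 array and on 1 sham array, so the size of this difference was not measured.

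Hoxd8, the one gene of the cluster detected on all arrays, had -2.003, -2.41 and -3.08 in POL5551 mice, -0.83, -1.30 and -1.18 at 2 days of G-CSF, -1.59, -1.84 and -1.26 at 5 days, and -1.89, -1.77 and -1.25 in sham mice. The POL5551 mice lay below all others, by 0.86 from the sham mean (difference -0.86, SE 0.351, adjusted p = 0.121). A second Hoxd8 probe, for the same transcript, was never above background. Hoxd13, a gene of digit formation, had -4.28, -3.46 and -3.87 in POL5551 mice, -3.84, -3.67 and -3.35 at 2 days of G-CSF, -4.42, -4.06 and -4.19 at 5 days, and -1.99, -2.98 and -3.29 in sham mice. Each treated mouse lay below each sham mouse. Its differences were -1.12 under POL5551 (SE 0.378, adjusted p = 0.0901), -0.86 after 2 days (SE 0.378, adjusted p = 0.532) and -1.47 after 5 days of G-CSF (SE 0.378, adjusted p = 0.271).

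**Figure D3:**
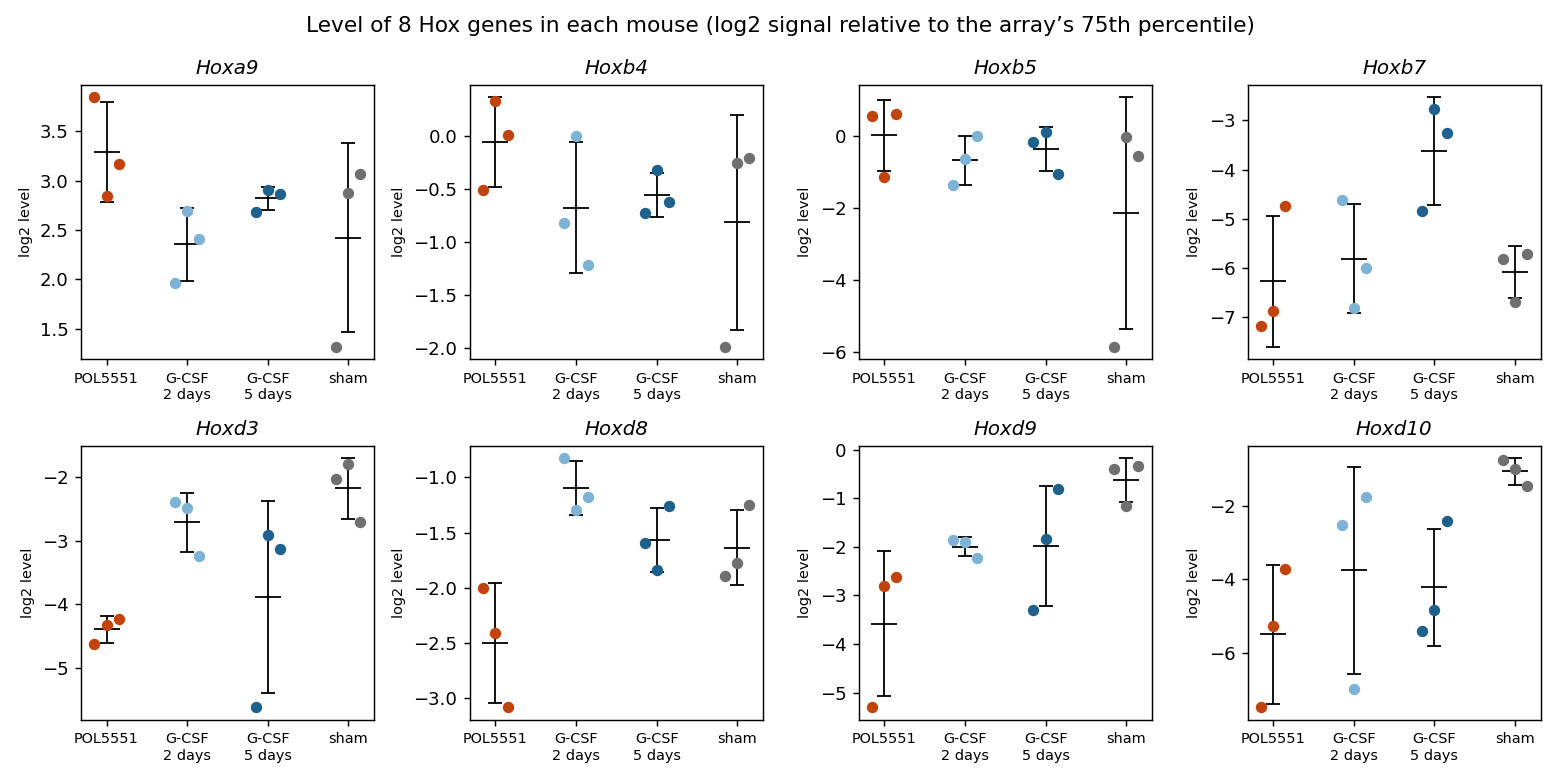
Level of 8 Hox genes in each mouse (y axis, log2 signal relative to the array's 75th percentile), in the POL5551, G-CSF 2-day, G-CSF 5-day and sham groups (x axis). Points are mice, and lines with bars are the mean and 1 SD (n = 3); sham 1 is the lowest point of Hoxa9, Hoxb4 and Hoxb5 at 1.32, -1.98 and -5.85, and the Hoxd9 and Hoxd10 points of POL5551 mice all lie below those of sham mice.

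The direction of the Hoxd genes did not turn on sham 1. Without that array the 6 differences kept a median of -2.29 (all genes -0.26), all 6 with an unadjusted p under 0.05, and the smallest adjusted p was 0.169. On slide 2, which held 1 POL5551 and 2 sham arrays, the 6 Hoxd differences ran from -0.33 for Hoxd13 to -4.03 for Hoxd10. There Hoxd8 differed by -0.90 and Hoxd9 by -2.07. The off-tissue genes were also lower in all POL5551 mice than in all sham mice, as given above. With their median as a covariate the 6 Hoxd genes were still all lower, with a median of -1.41 (all genes -0.05), but 1 of 6 had an unadjusted p under 0.05 and the smallest adjusted p was 0.868. Genes of kidney and limb, tissues where Hoxd genes are known to act, were lower in POL5551 mice for all 5 of 5 tested. Their median was -1.68 (all genes -0.52), and none was called. Their summed level ran from 2.52 to 2.66 in POL5551 mice and from 2.37 to 4.85 in sham mice, with 3 or 4 of 7 markers above background in POL5551 mice and 4 or 5 in sham mice. The part of these shifts in the Hoxd values was not tested.

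The non-coding and neighbouring genes of the clusters held 1 called gene of 17 tested under POL5551, where 2.28% of all genes were called. Hoxd3os1, the antisense transcript shown above, had -7.49, -7.14 and -7.20 in POL5551 mice, -4.07, -3.88 and -4.05 at 2 days of G-CSF, -5.75, -6.65 and -6.32 at 5 days, and -5.30, -3.20 and -5.86 in sham mice. It was lower in POL5551 mice by the fit (-2.49, SE 0.566, adjusted p = 0.0479), and it passed the F test (adjusted p = 0.047). It was above background on no POL5551 array, all 3 arrays at 2 days, none at 5 days and 1 sham array, so the size of the difference was not measured. Hoxd3os1 thus entered the test only through the 2-day group, where its mean was highest, which favoured a difference in the F test. The F call was also lost in most settings, with an adjusted p of 0.0851 with quantile normalization, 0.0773 with median scaling, 0.0565 with the replicate block, 0.0505 with the slide as a random block and 0.0615 to 0.153 without any 1 treated mouse. The POL5551 call was lost in most other settings, with an adjusted p of 0.112 without sham 1 and 0.0955 with the slide as a block, in a range of 0.0225 to 0.786. In this list 6 genes were higher and 11 lower in POL5551 mice, with a median of -0.65 (all genes -0.52).

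The Hoxa genes had small differences in every comparison. Hoxa9, the main Hox gene of blood progenitors, had 3.84, 2.85 and 3.17 in POL5551 mice, 1.96, 2.69 and 2.41 at 2 days of G-CSF, 2.69, 2.91 and 2.87 at 5 days, and 1.32, 2.88 and 3.07 in sham mice. The groups overlapped, and sham 1 lay apart below the other sham mice. Its difference under POL5551 was 0.86 (SE 0.463, adjusted p = 0.186), or 0.31 without sham 1. A second Hoxa9 probe that was above background on all arrays differed by 0.47, and another, for a different transcript, was never above background. Hoxa10, which acts beside Hoxa9 in progenitors, had 0.70, 0.05 and 0.14 in POL5551 mice, -0.67, -0.43 and -0.23 at 2 days of G-CSF, 0.11, 0.09 and 0.08 at 5 days, and -0.998, 0.71 and 0.65 in sham mice. On this probe all 5-day mice lay above the 2-day mice, with sham mice on both sides. A second Hoxa10 probe was also above background on all arrays. It had -0.91, -0.58 and -1.32 at 2 days of G-CSF and -0.28, -0.19 and -1.46 at 5 days. Its sham values were 0.05, 0.19 and -0.39. There the 5-day mice overlapped the 2-day mice, and all 2-day mice lay below all sham mice.

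Hoxa5, Hoxa6 and Hoxa7, the middle genes of the cluster, varied in the same narrow way. Hoxa5 had -1.02, -1.23 and -0.88 in POL5551 mice, -1.84, -1.92 and -2.19 at 2 days of G-CSF, -1.75, -1.73 and -2.37 at 5 days, and -2.14, -0.79 and -0.82 in sham mice. Its G-CSF mice were all below its POL5551 mice and below sham 2 and 3. Hoxa7 had -0.40, 0.08 and -0.03 in POL5551 mice, -0.76, -0.86 and -1.21 at 2 days of G-CSF, -1.13, -0.67 and -0.62 at 5 days, and -1.36, 0.11 and -0.07 in sham mice. The same order held for Hoxa7, with sham 1 again below the other sham mice. Hoxa6 had -0.12, -0.54 and 0.11 in POL5551 mice, -0.59, -0.97 and -0.94 at 2 days of G-CSF, -1.19, -0.67 and -0.06 at 5 days, and -2.01, -1.003 and 0.12 in sham mice, and its groups overlapped. Without sham 1, Hoxa5, Hoxa7 and Hoxd8 were called by the F test.

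The 3′ genes Hoxa2 and Hoxa3, which pattern the hindbrain and pharyngeal arches, overlapped between each treated group and sham. Hoxa2 had -0.92, -2.05 and -0.65 in POL5551 mice, -2.39, -1.91 and -1.31 at 2 days of G-CSF, -1.66, -1.25 and -1.67 at 5 days, and -2.35, -1.23 and -0.90 in sham mice. Hoxa3 had 1.44, 1.62 and 2.03 in POL5551 mice, 0.72, 1.17 and 1.20 at 2 days of G-CSF, 1.17, 1.48 and 1.49 at 5 days, and 0.91, 1.71 and 1.70 in sham mice. At the 5′ end Hoxa13, a gene of limb and genital development, had -3.96, -2.21 and -2.57 in POL5551 mice, -1.69, -2.16 and -1.70 at 2 days of G-CSF, -2.82, -2.78 and -3.34 at 5 days, and -1.41, -1.50 and -3.05 in sham mice. Unlike most of its cluster, Hoxa13 was lower in POL5551 mice, by the fit -0.93, without passing the threshold. Hoxa4 was the Hoxa gene with the largest difference after 5 days of G-CSF. It had -2.72, -2.14 and -1.87 at 5 days and -4.45, -4.23 and -3.10 in sham mice, all 5-day mice above all sham mice, with a difference of 1.68 (SE 0.532, adjusted p = 0.347).

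The positive values of the Hoxa cluster under POL5551 depended on sham 1. In the full fit 8 of 10 Hoxa genes were above sham. Without sham 1 only 2 of 10 were, with a median of -0.14 (all genes -0.26). Sham 1 lay below both other sham mice for 8 of 10 Hoxa and 6 of 8 Hoxb genes, and above both for 7 of 8 Hoxc genes, as drawn in the map of levels by array. Over all tested genes it lay below both for 29.9% and above both for 56.8%.

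**Figure D4:**
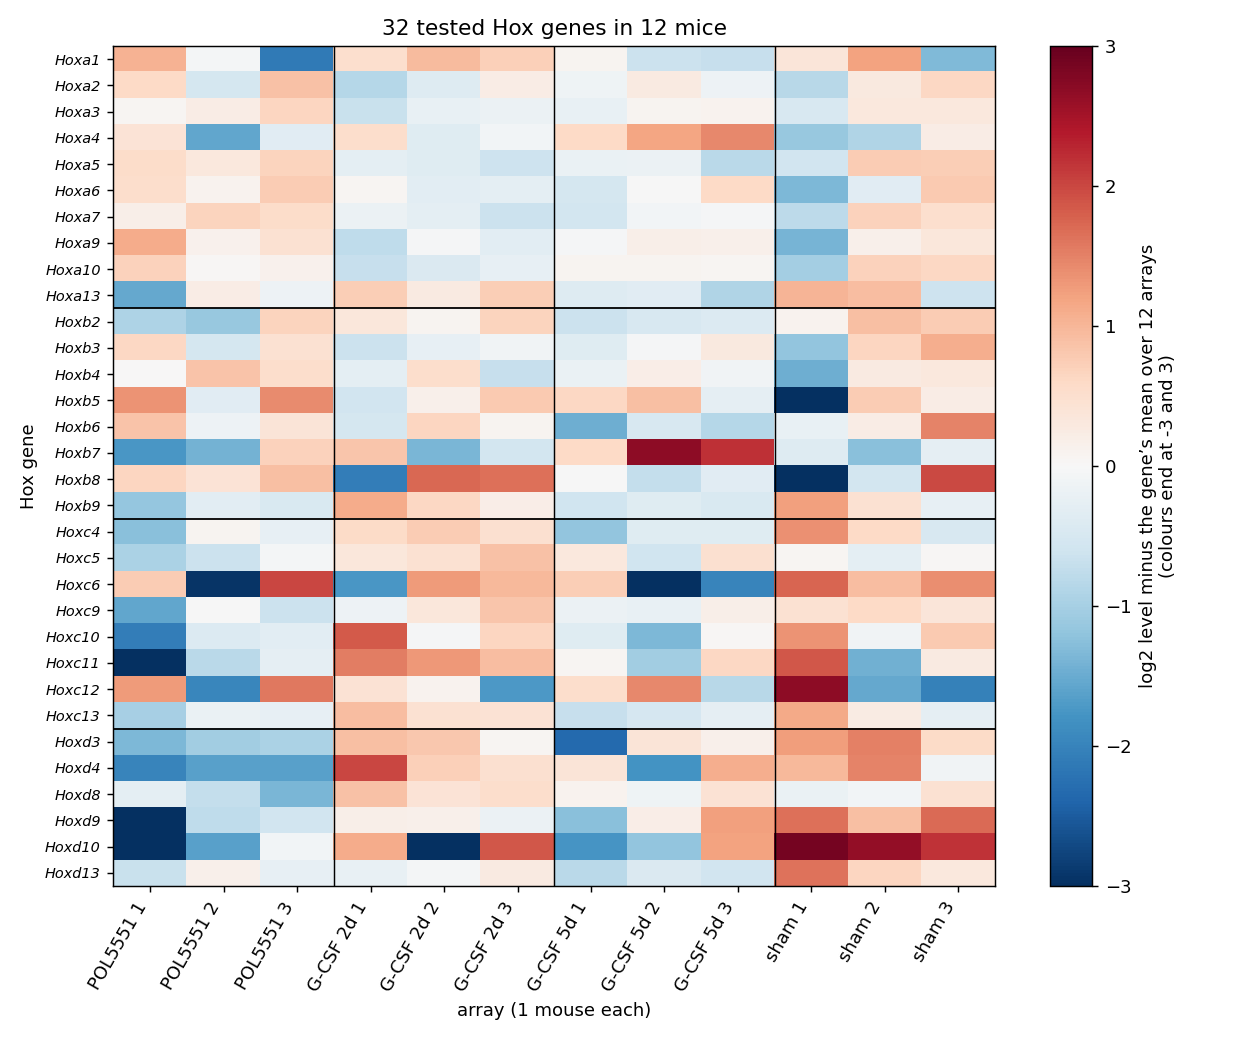
Level of the 32 tested Hox genes (rows, in cluster order) on the 12 arrays (columns), as log2 difference from the gene's own mean over the arrays; red is higher and blue lower. The sham 1 column is blue over most Hoxa and Hoxb genes and red over most Hoxc genes, and the POL5551 columns are blue over most Hoxd genes.

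In the Hoxb cluster, Hoxb4 had -0.51, 0.32 and 0.01 in POL5551 mice, -0.82, -0.01 and -1.21 at 2 days of G-CSF, -0.73, -0.33 and -0.63 at 5 days, and -1.98, -0.25 and -0.21 in sham mice. The groups overlapped, and the difference under POL5551 was 0.76 (SE 0.5, adjusted p = 0.259), or 0.17 without sham 1. Hoxb5, a marker of long-term stem cells, had the largest positive difference under POL5551, 2.16 (SE 1.22, adjusted p = 0.204). Its levels were 0.55, -1.13 and 0.62 in POL5551 mice, -1.36, -0.65 and -0.02 at 2 days of G-CSF, -0.18, 0.11 and -1.06 at 5 days, and -5.85, -0.03 and -0.57 in sham mice. Sham 1 lay far below all other arrays, and the other sham mice lay within the range of the treated mice. Hoxb5 was not above background on sham 1, so the size of these differences was not measured. It differed by -0.83 on slide 2, and its 2-day and 5-day differences of 1.47 and 1.77 became -0.38 and -0.08 without sham 1.

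Hoxb8, an oncogene that blocks myeloid maturation, was likewise unstable. Its difference of 1.37 under POL5551 (SE 1.25, adjusted p = 0.397) became -0.06 without sham 1, and its second probe differed by -0.78. Hoxb3, which acts with Hoxb4 in stem cells, had 1.75, 0.60 and 1.59 in POL5551 mice, 0.49, 0.89 and 1.03 at 2 days of G-CSF, 0.77, 1.08 and 1.41 at 5 days, and -0.06, 1.77 and 2.23 in sham mice. The POL5551 and sham means were equal to within 0.01, although 2 further Hoxb3 probes gave -0.62 and -1.22, so the probes of Hoxb3 did not give a single answer. Hoxb2 was also split. The antisense probe under its name had -2.77, -2.98 and -1.17 in POL5551 mice, -1.50, -1.76 and -1.18 at 2 days of G-CSF, -2.48, -2.32 and -2.25 at 5 days, and -1.75, -0.93 and -1.07 in sham mice. The probe on the coding strand, at chr11:96215122-96215181, had -1.81, -1.45 and -1.37 in POL5551 mice, -2.83, -2.76 and -3.14 at 2 days of G-CSF, -2.21, -2.02 and -2.57 at 5 days, and -4.36, -1.52 and -2.16 in sham mice. The strands differed in sign, at -1.05 for the antisense probe and 1.14 for the coding one under POL5551, and neither was called.

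Hoxb6 and Hoxb9, with the antisense Hoxb2 probe, were the Hoxb members below sham at an unadjusted p under 0.05 after 5 days of G-CSF. Hoxb6 had -0.89, -1.90 and -1.36 in POL5551 mice, -2.26, -1.10 and -1.66 at 2 days of G-CSF, -3.21, -2.22 and -2.59 at 5 days, and -1.97, -1.52 and -0.26 in sham mice. Its 5-day mice lay below all sham and all POL5551 mice. Hoxb9, a gene of the thoracic skeleton, had -2.20, -1.36 and -1.50 in POL5551 mice, 0.08, -0.41 and -0.83 at 2 days of G-CSF, -1.64, -1.39 and -1.50 at 5 days, and 0.20, -0.59 and -1.28 in sham mice. Its POL5551 and 5-day mice lay below all 2-day and all sham mice. Hoxb9 differed from sham by -1.13 under POL5551 (SE 0.417, adjusted p = 0.103) and by -0.95 after 5 days of G-CSF (SE 0.417, adjusted p = 0.43).

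Hoxb7 stood out by detection. It was above background on all 3 arrays after 5 days of G-CSF and on none of the other 9 arrays. It thus entered the test only through the group where it was high, which favoured a difference. Its fitted values and bounds are therefore a description of group means. Its level was -7.18, -6.87 and -4.74 in POL5551 mice, -4.62, -6.81 and -5.99 at 2 days of G-CSF, -4.85, -2.77 and -3.25 at 5 days, and -5.82, -6.69 and -5.72 in sham mice. The 5-day mice lay above all sham mice, but one 2-day and one POL5551 mouse lay above the lowest 5-day mouse. Against sham the bound was at least 2.04-fold, from the 5-day mean and the dimmest signal called above background on the sham arrays, or the probe's own where higher, with a fitted difference of 2.46 (SE 0.766, adjusted p = 0.347). Against 2 days of G-CSF the fitted difference was 2.19 (SE 0.766, adjusted p = 0.252), and the bound for the 5-day mean was at least 2.13-fold higher. For the POL5551 mean it was at least 2.44-fold below the 5-day mean (fitted difference -2.65, SE 0.766, adjusted p = 0.326).

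The Hoxc genes, used mainly in the trunk skeleton and nervous system, were mostly lower under POL5551, 7 of 8 beside 64.1% of all genes. Hoxc9 had -4.11, -2.55 and -3.18 in POL5551 mice, -2.69, -2.21 and -1.70 at 2 days of G-CSF, -2.72, -2.75 and -2.37 at 5 days, and -2.08, -1.94 and -2.17 in sham mice. Its POL5551 and 5-day mice lay below all sham mice, with a POL5551 difference of -1.22 (SE 0.407, adjusted p = 0.0887). Hoxc10 had -3.44, -1.78 and -1.69 in POL5551 mice, 0.46, -1.42 and -0.73 at 2 days of G-CSF, -1.74, -2.72 and -1.35 at 5 days, and -0.02, -1.48 and -0.58 in sham mice. Its POL5551 mice lay below all sham mice, with a difference of -1.61 (SE 0.635, adjusted p = 0.114).

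Hoxc4, a Hoxc gene reported in lymphoid and early blood cells, had -1.02, 0.30 and -0.02 in POL5551 mice, 0.81, 1.00 and 0.71 at 2 days of G-CSF, -0.96, -0.13 and -0.13 at 5 days, and 1.61, 0.83 and -0.26 in sham mice. Its 5-day mice lay below its 2-day mice and overlapped sham mice. Hoxc5 had -1.52, -1.22 and -0.63 in POL5551 mice, -0.23, -0.10 and 0.32 at 2 days of G-CSF, -0.26, -1.16 and -0.10 at 5 days, and -0.50, -0.85 and -0.52 in sham mice. It was the one Hox gene whose 2-day mice all lay above all sham mice, by a mean of 0.62 (SE 0.368, adjusted p = 0.653). Hoxc13, a gene of hair and nails, had -3.84, -3.05 and -3.08 in POL5551 mice, -1.92, -2.38 and -2.41 at 2 days of G-CSF, -3.54, -3.33 and -3.10 at 5 days, and -1.70, -2.60 and -3.10 in sham mice. Its values came from a probe for a non-coding transcript model, and the probe for its coding transcript was never above background. Hoxc6 had a 5-day difference of -2.81 (SE 1.29, adjusted p = 0.45), with levels of -3.08, -6.95 and -5.80 after 5 days and -2.08, -2.90 and -2.42 in sham mice, while its second probe averaged -4.92 after 5 days and -4.60 in sham mice. The first Hoxc6 probe was above background on only 1 array at 5 days and on all sham arrays. With the off-tissue covariate the Hoxc direction under POL5551 turned, to 6 of 8 genes higher.

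After 2 days of G-CSF against sham, 0 of 32 Hox genes were called by limma, where 0.0331% of all tested genes were. At an unadjusted p under 0.05 there was 1 Hox gene, Hoxd13, beside 9.12% of all genes. It was lower, as were 3.18% of all genes, and 0 Hox genes were higher beside 5.94%. Without sham 1 the Hoxd13 difference was -0.48, against -0.86 with it. The median Hox difference was 0.02 and that of all genes 0.10. Hoxb5 (1.47, SE 1.22, adjusted p = 0.79), Hoxb8 (1.15, SE 1.25, adjusted p = 0.858) and Hoxc11 (1.02, SE 0.855, adjusted p = 0.795) had the largest positive differences. Hoxd10, Hoxd9 (-1.37, SE 0.732, adjusted p = 0.608) and Hoxc6 (-1.19, SE 1.29, adjusted p = 0.859) had the largest negative ones. The 2-day mice lay wholly below sham for Hoxd9, Hoxd10 and Hoxd13, 3 of 32 beside 5.35% of all genes, and wholly above for 1 of 32 beside 6.63%.

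After 5 days of G-CSF against sham, 0 of 32 Hox genes were called by limma, where 0.0663% of all tested genes were. At an unadjusted p under 0.05 there were 9 Hox genes, beside 11.1% of all genes. They were Hoxa4 and Hoxb7, both higher beside 3.23% of all genes, and 7 lower ones beside 7.90%, with Hoxb7 tested only through the 5-day arrays. The 7 were the antisense probe named Hoxb2, whose coding probe differed by 0.41, and Hoxb6, Hoxb9, Hoxc4, Hoxd3, Hoxd10 and Hoxd13, drawn from 3 of the clusters. The median Hox difference was -0.43 and that of all genes -0.13. Without overlap with sham, 8 of 32 Hox genes lay lower beside 8.16% of all genes, and 2 lay higher beside 4.41%. Hoxb5 had a difference of 1.77 (SE 1.22, adjusted p = 0.582). All 3 comparisons with sham use the same sham mice, so their values are not independent.

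Between 5 and 2 days of G-CSF, 0 of 32 Hox genes were called by limma, as were 0% of all genes, and 4 Hox genes had an unadjusted p under 0.05 beside 16.2% of all genes. Of these 1 was higher at 5 days, beside 3.46% of all genes, and 3 were lower, beside 12.7%. The higher one was Hoxb7, which was tested only through the 5-day arrays. The largest positive differences were those of Hoxb7, Hoxa4 (1.04, SE 0.532, adjusted p = 0.343) and Hoxc12 (0.77, SE 1.28, adjusted p = 0.733). Hoxc12 was above background on no 2-day array, so the size of its difference was not measured. The largest negative ones were those of Hoxc6 (-1.62, SE 1.29, adjusted p = 0.496), Hoxc10 (-1.37, SE 0.635, adjusted p = 0.315) and Hoxc11 (-1.36, SE 0.855, adjusted p = 0.411). Hoxc6 and Hoxc11 were each above background on only 1 array at 5 days. The 5-day mice lay wholly below the 2-day mice for 8 of 32 Hox genes, beside 23.4% of all genes. They lay wholly above for Hoxa4 and Hoxa10, beside 11.8%, but on the second Hoxa10 probe these groups overlapped. Between POL5551 and 5 days of G-CSF, 0 of 32 were called by limma beside 0.0603% of all genes, and 6 had an unadjusted p under 0.05 beside 11.6%. Of these 2 were higher in POL5551 mice, beside 2.22% of all genes, and 4 were lower, beside 9.42%. Hoxb7, tested only through the 5-day arrays, was among the 4. POL5551 mice lay wholly above 5-day mice for Hoxa5, Hoxa7, Hoxb6 and Hoxb8, beside 10.3% of all genes, and wholly below for Hoxa4 and Hoxd8, beside 15.3%. The largest positive differences were those of Hoxc6 (1.41, SE 1.29, adjusted p = 0.589), Hoxb6 (1.29, SE 0.501, adjusted p = 0.411) and Hoxb8 (1.00, SE 1.25, adjusted p = 0.685). Next to Hoxb7, the largest negative ones were those of Hoxd4 (-1.64, SE 0.699, adjusted p = 0.425) and Hoxd9 (-1.60, SE 0.732, adjusted p = 0.429). Hoxd4 was above background on no POL5551 array, so the size of its difference was not measured. By the F test over the 4 groups 0 of 32 were called beside 1.35% of all genes, and 12 had an unadjusted p under 0.05 beside 34.0%. Hoxb7 was also among these 12.

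Among the cofactors of Hox proteins, 0 of 11 TALE genes were called in any of the 5 comparisons. Meis1, the partner of Hoxa9, had 3.00, 3.63 and 3.18 in POL5551 mice, 2.44, 3.00 and 2.51 at 2 days of G-CSF, 2.92, 3.23 and 3.08 at 5 days, and 3.16, 3.33 and 3.40 in sham mice. All 2-day mice lay below all sham mice for Meis1, by a mean of 0.65 (difference -0.65, SE 0.293, adjusted p = 0.547). Meis2 and Tgif1 had the smallest F test values of the list, with adjusted p of 0.0914 and 0.0954. Under POL5551, Meis2 differed by -0.93 and Tgif1, a repressor of the TALE class, by 0.96.

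The regulators that keep Hox genes active or silent had no call in a comparison either. On the Trithorax, MLL and DOT1L side, 0 of 26 genes were called, 21 were higher and 5 lower under POL5551, and the median was 0.52. Kmt2d and Aff1 had the smallest F test values there, and differed by -0.77 and -1.26 under POL5551. On the Polycomb side, 0 of 30 were called, 25 were higher and 5 lower under POL5551, and the median was 0.74. Of all tested genes 64.1% were lower under POL5551, with a median of -0.52. Without sham 1 the medians of the Trithorax and Polycomb lists were 0.16 and 0.24 (all genes -0.26), with 16 of 26 and 22 of 30 higher. With the off-tissue covariate these list medians turned to -0.45 and -0.34 (all genes -0.05). Cbx8, a chromodomain subunit that binds the Polycomb mark, passed the F test (adjusted p = 0.0488). It had -1.90, -1.49 and -1.64 in POL5551 mice, -4.76, -4.64 and -3.31 at 2 days of G-CSF, -2.11, -2.19 and -2.45 at 5 days, and -3.14, -2.81 and -1.99 in sham mice, and the 2-day mice lay below all others. The call was lost when any 1 POL5551 mouse was left out (adjusted p of 0.0735 to 0.133), without any 1 of the 5-day mice and without 2-day mouse 1 or 2. It was also lost with quantile normalization (0.0667), the authors' values (0.0665), the replicate block (0.0532) and the slide as a random block (0.0517), and over all settings the adjusted p ran from 0.0205 to 0.43.

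Of the upstream regulators of the Cdx and retinoid pathways, 0 of 11 tested genes were called. Gdf11, a growth factor that sets the posterior Hox domain, differed by 2.40 after 2 days of G-CSF (SE 0.836, adjusted p = 0.464), with sham 1 missing because its spot was marked as an outlier. Rarb, a retinoic acid receptor, differed by 1.49 after 2 days (SE 0.655, adjusted p = 0.534). Among 13 homeobox genes outside the clusters 0 were called, and Pou2f2 and Adnp had the smallest F test values, with adjusted p of 0.141 and 0.146.

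Markers of some other marrow cells also differed between POL5551 and sham mice in the main fit. Of all tested genes 64.1% were lower in that fit. The median of all genes was -0.52 there, -0.26 without sham 1 and -0.05 with the off-tissue covariate. Of 15 tested stromal and osteoblast genes 10 were above sham, and Ebf3 and Pdgfrb were called higher, where 2.28% of all genes were called. Only Pdgfrb was called without sham 1, and neither with the off-tissue covariate. Between 14 and 16 of 16 stromal markers were above background in POL5551 mice and 12 or 13 in sham mice, with summed levels of 4.40 to 5.82 in POL5551 mice and 3.32 to 4.19 in sham mice. All 5 megakaryocyte genes were above sham, with Gp1ba, a platelet receptor subunit, called higher (adjusted p = 0.0416). All 5 mast cell genes were below sham, with a median of -1.55 and the mast cell protease Mcpt1 called lower (adjusted p = 0.0377), and so were all 6 T and NK genes, with a median of -1.04 and none called. Neither Gp1ba nor Mcpt1 was called without sham 1 or with the off-tissue covariate. The megakaryocyte median was 0.80 in the main fit, 0.14 without sham 1 and -0.90 with the covariate. The mast cell median was -1.08 without sham 1 and 0.15 with the covariate, and the T and NK median -0.67 and -0.13. The stromal median was 1.94 in the main fit, 2.30 without sham 1 and 1.75 with the covariate. The summed level of megakaryocyte genes was 3.58 to 3.78 in POL5551 mice, and 1.74, 3.65 and 3.57 in sham mice 1, 2 and 3. That of mast cell genes was 0.502 to 1.57 in POL5551 mice and 1.64 to 3.52 in sham mice, and that of T and NK genes 1.66 to 2.49 in POL5551 mice and 2.45 to 4.08 in sham mice. In bulk RNA of a sorted population, a change in the number of cells of a type and a change in RNA per cell cannot be told apart, and the part of these cells in the Hox values was not tested.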

How the data were processed

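Total RNA of sorted cells from 12 mice was measured on 12 single-colour arrays, whose scanner files hold a processed signal intensity per spot that the authors deposited. Agilent Feature Extraction 11.5.1.1 made them, per the submitters' processing notes. The deposited value table of the authors holds processed intensities, and log2 of these was used only as an alternative. Here log2 of the processed intensity minus the array's 75th percentile was fitted with limma 3.58.1 in R 4.3.3, as group means over all 12 arrays, with Benjamini-Hochberg adjustment over 33191 genes at 0.05. Spots marked as outliers and control spots were left out. A probe was tested if well above background on at least 3 arrays, and a gene was represented by its tested probe of highest mean. The fit was checked on simulated data. Values by array were given for Hox genes above background on all arrays, and the 3 largest differences each way per comparison and each list's called genes, or else its 2 smallest F test values, were named. Other genes, such as those at an unadjusted p under 0.05, were named after their values were seen. The members and lists were chosen with earlier results of these data known. Same-numbered arrays came from different mice. Their deviations correlated at -0.31 to 0.26, so the numbers were not treated as pairs.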

Additional observations from a re-analysis of the deposited data

How the results depend on the processing

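With POL5551 against sham, no Hox gene was called under most settings, but 1, Hoxd9, was called with the 75th percentile taken over probes above background on all arrays, with the slide as a fixed block and with a trended robust variance. Leaving out 1 mouse at a time gave 0 to 4 calls there, 0 to 3 by the F test and 0 to 0 in the other comparisons. The 4 calls, Hoxb9, Hoxd3, Hoxd4 and Hoxd13, came without sham 3. Array weights gave 3 calls between 5 and 2 days of G-CSF and 1 by the F test. With the replicate number as a block 0 Hox genes were called in every comparison, so this block changed no Hox call. The difference of Hoxd4 between POL5551 and 5 days of G-CSF turned to 0.15 with the slide block. With the off-tissue covariate, POL5551 against sham turned to -2.14 for Hoxb5, -2.13 for Hoxb8 and -0.60 for Hoxa9. Hoxb5 turned to -0.39 after 5 days against sham, Hoxc11 to 0.41 between 5 and 2 days, and Hoxb8 to -0.74 between POL5551 and 5 days. Leaving out 1 mouse at a time, Hoxb8 ran from -0.064 (without sham 1) to 2.73 under POL5551 and from -0.28 to 2.51 after 2 days, and Hoxb5 from -0.38 to 2.53 after 2 days and from -0.079 to 2.83 after 5 days, with each lowest value without sham 1. The causes were not tested. Scaling moved the median POL5551 difference of all genes to -0.20 by quantile normalization and -0.12 by median scaling, against -0.52. The slide block could not be fitted for the comparisons of the 2-day group or the F test. Genes dim on some arrays had no value where only probes above background on all arrays were kept. Near background, signals limit what can be seen of the Hoxd genes.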
